A study of Mus musculus with 20 samples.

Results

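The baseline transcriptome of 3T3-L1 adipocytes was described from the 10 control libraries among the 20 libraries of the series, chosen by the set name and the expression construct in their labels. The Foxk1 set holds the 6 controls of the Foxk1 experiments, 3 libraries with a scrambled shRNA (for knockdown) and 3 with an empty vector (for overexpression). The Foxk2 set holds the 4 controls of the Foxk2 experiments, 2 libraries with a scrambled shRNA and 2 with an empty vector. All cells were of the 3T3-L1 line, a fibroblast line of Swiss mouse origin that turns into fat cells in culture. Both sets had been differentiated with 10 µM troglitazone, 5 µg/ml insulin, 1 µM dexamethasone and 0.5 mM isobutyl methylxanthine, received insulin alone from day 4 and were in plain growth medium from day 6. The day of harvest and the way the constructs were delivered are not given in the sources used here. The labels do not say that replicates came from separate cultures, so p-values measure only the spread between these libraries, which may be technical. The labels tie no library of the Foxk1 set to one of the Foxk2 set, so differences in the cells, their culture and the making of the libraries cannot be told apart.

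Dexamethasone binds the glucocorticoid receptor and isobutyl methylxanthine raises cyclic AMP, and in 3T3-L1 cells the pair starts a cascade in which C/EBP factors switch on Pparg and Cebpa. Troglitazone is a ligand of PPARG, the nuclear receptor that drives fat cell genes. Converted cells make triglyceride, store it in coated lipid droplets and secrete adiponectin and adipsin, while unconverted cells keep the collagen-rich programme of fibroblasts. Foxk1 and Foxk2, the factors that the series manipulates, are forkhead transcription factors linked to glucose use.

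Levels are given in RPKM, reads per kilobase of merged exons, scaled to the reads assigned to genes in each library, so that genes can be compared per length. The libraries of the Foxk1 set held 17328261 to 20772823 assigned reads and those of the Foxk2 set 32100965 to 36157008. Genes at 1 RPKM or more numbered 12294 to 12488 in the Foxk1 set and 11128 to 11207 in the Foxk2 set, whereas genes with any read numbered 19456 to 20017 in the Foxk1 set and 21629 to 21837 in the Foxk2 set. The shallower set thus had more genes above 1 RPKM and fewer genes with a read. Scaled to the depth of the shallowest control library, the genes expected with a read numbered 18630 to 18937 in the Foxk1 set. They numbered 19267 to 19394 in the Foxk2 set. Genes annotated as antisense took 0.943 to 1.03% of reads in the Foxk1 set and 0.09998 to 0.106% in the Foxk2 set. Libraries of the same group had Spearman correlations of 0.988 to 0.994 over the 15981 genes tested. Between the sets the correlations were 0.788 to 0.805, and 0.926 to 0.946 over the 8193 genes that overlap no other gene and have under 20% of their transcript in near-identical copies elsewhere (called solitary genes from here on).

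**Figure D1:**
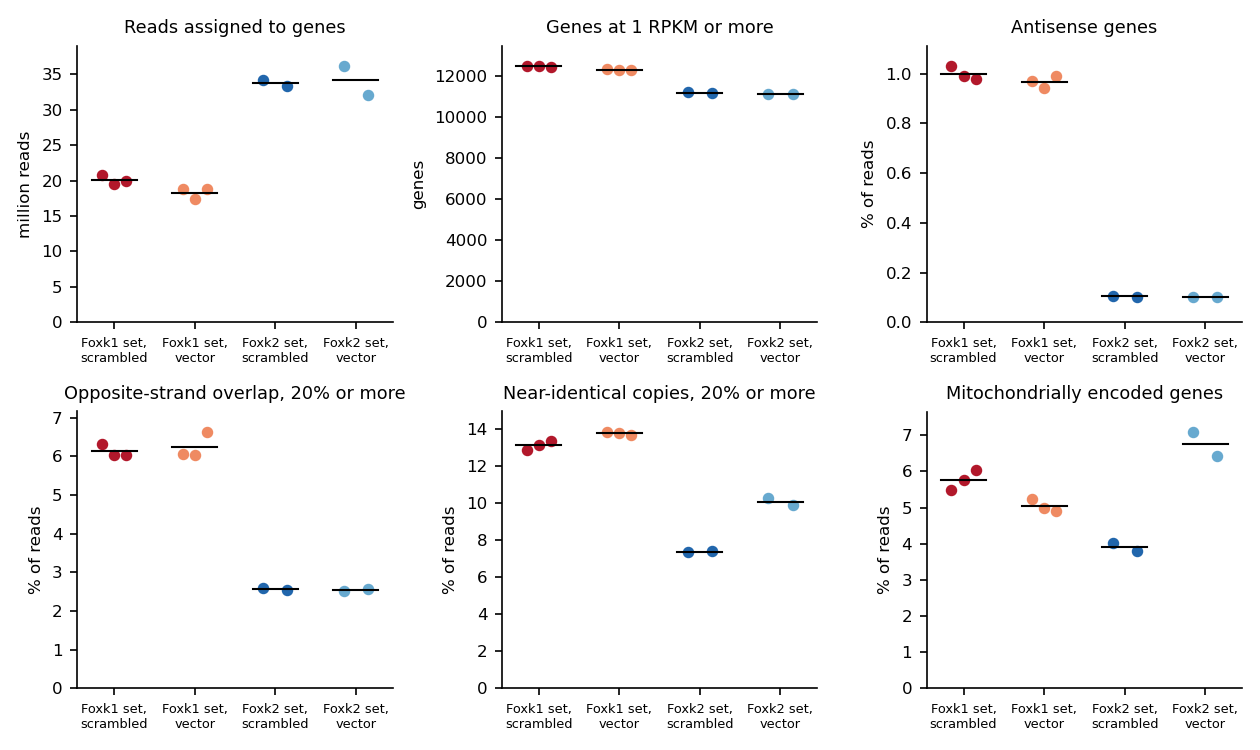
Reads assigned to genes, genes at 1 RPKM or more, and the shares of reads (%) in antisense genes, in genes with 20% or more of their exons overlapped on the opposite strand or of their transcript in near-identical copies, and in mitochondrially encoded genes. Each point is 1 library and each line the mean of its group. The 6 libraries of the Foxk1 set sit apart from the 4 of the Foxk2 set in each panel except that of mitochondrially encoded genes.

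The cells of both sets expressed fat cell genes at the top of their transcriptomes. The nuclear protein-coding gene of highest mean level was Scd1, the stearoyl-CoA desaturase that makes monounsaturated fatty acids. It had 6233, 6428 and 6332 RPKM in the scrambled controls and 8032, 8982 and 7914 RPKM in the vector controls of the Foxk1 set, against 13590.3 and 14102 RPKM in the scrambled and 10736 and 10726 RPKM in the vector controls of the Foxk2 set. Each of the 6 libraries of the Foxk1 set was below all 4 of the Foxk2 set. The ranges of the sets lay apart, in either direction, in 49.9% of all genes tested. The fitted difference of Scd1 was -0.75 ± 0.043 (SE) on the log2 scale (adjusted p = 1.58e-10). The ferritin heavy chain gene Fth1 averaged 4406 RPKM in the Foxk1 set and 5088 RPKM in the Foxk2 set. Cfd, which encodes the secreted protease adipsin, averaged 3826 RPKM in the Foxk1 set and 3486 RPKM in the Foxk2 set. Cidec, which fuses lipid droplets, averaged 2616 RPKM in the Foxk1 set and 3091 RPKM in the Foxk2 set. The other genes among the 15 highest, by a mean that weighs the 4 groups equally, were Adipoq, Lpl, Fabp4, Mt1, Lgals1, Sod1, Cox8a, Cox6a1, Eef1a1, Rplp1 and Ftl1. Not all ranked as high in the Foxk2 set. Ftl1 averaged 2197 RPKM in the Foxk1 set and 526 RPKM in the Foxk2 set, and 74.8% of its transcript recurs in other genes. Rplp1 had 655 to 776 RPKM in the Foxk2 set, where Pcx, not among the 15, had 1136 to 1357 RPKM.

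Adipoq, which encodes adiponectin, had 2937, 3042 and 3152 RPKM in the scrambled controls and 2085, 1962 and 1956 RPKM in the vector controls of the Foxk1 set, against 1828 and 1911 RPKM in the scrambled and 1605 and 1657 RPKM in the vector controls of the Foxk2 set. The libraries did not overlap between the sets (as in 49.9% of all genes), and the scrambled controls of the Foxk1 set stood well above the other 3 groups. The fitted difference of 0.50 ± 0.033 on the log2 scale turned to -0.07 once each library's dependence on gene length and on GC content was taken out. Pparg had 118, 119, 122, 120, 117 and 116 RPKM in the Foxk1 set and 115, 118, 127 and 124 RPKM in the Foxk2 set, ranges that overlap (log2 difference -0.03, 95% interval -0.07 to 0.02, adjusted p = 0.251). It was called lower with other scalings, by -0.39 after quantile normalization, -0.32 with the length and GC trend removed and -0.09 with median-ratio scaling. Cebpa, the other core regulator, averaged 153 RPKM in the Foxk1 set and 139 RPKM in the Foxk2 set and did not pass the test (95% interval of the log2 difference 0.00 to 0.28, adjusted p = 0.0664).

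The manipulated factors themselves were present in all controls. Foxk1 had 8.80, 8.18 and 7.98 RPKM in the scrambled and 7.11, 7.48 and 8.04 RPKM in the vector controls of the Foxk1 set, against 10.7 and 9.79 RPKM in the scrambled and 11.6 and 11.6 RPKM in the vector controls of the Foxk2 set. Foxk2 had 10.9, 10.8, 11.3, 11.4, 11.5 and 10.9 RPKM in the Foxk1 set and 13.1, 12.7, 13.4 and 13.3 RPKM in the Foxk2 set. For both genes every library of the Foxk1 set was below every library of the Foxk2 set. In 49.9% of all genes the sets lay apart in this way, in either direction. The log2 difference was -0.44 ± 0.044 for Foxk1 and -0.23 ± 0.032 for Foxk2 (adjusted p = 1.6e-07 and 7.55e-06).

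Between the sets most genes differed beyond the spread of the libraries. Of 15981 genes tested, 11966 (74.9%) passed the threshold of an adjusted p of 0.05 in limma's moderated test, 6585 (41.2%) higher and 5381 (33.7%) lower in the Foxk1 set. With a change of at least 2-fold added to the rule, 2230 genes (14.0%) were higher and 774 (4.84%) lower. Among the 6736 solitary protein-coding genes, 2080 (30.9%) were higher and 2847 (42.3%) lower, and 139 (2.06%) were higher and 103 (1.53%) lower by at least 2-fold. The median log2 difference was 0.06 over all genes and -0.04 over solitary protein-coding genes. It moved with the scaling, to -0.23 over all genes after quantile normalization and to -0.14 with the length and GC trend removed. The calls then split into 4026 higher and 8916 lower, and into 4581 higher and 7915 lower.

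Genes of fibroblasts and preadipocytes were higher in the Foxk1 set almost throughout. Of 19 markers tested, 17 were higher, 1 was lower and 1 did not pass the test, with a median log2 difference of 0.88, against 41.2% higher and a median of 0.06 over all genes. All 13 solitary markers were higher, against 28.6% of all solitary genes. Their median difference was 1.06. Lum, which encodes the collagen-binding proteoglycan lumican, had 51.7, 58.1 and 58.9 RPKM in the scrambled and 27.4, 20.4 and 25.4 RPKM in the vector controls of the Foxk1 set, against 5.48 and 4.97 RPKM in the scrambled and 7.49 and 7.52 RPKM in the vector controls of the Foxk2 set. No library overlapped between the sets (as in 49.9% of all genes and 39.2% of solitary genes), and the scrambled controls of the Foxk1 set were highest (log2 difference 2.47 ± 0.091, adjusted p = 4.47e-13). Dcn, the related proteoglycan decorin, had 223, 229 and 239 RPKM in the scrambled and 197, 151 and 176 RPKM in the vector controls of the Foxk1 set, against 42.9 and 41.9 RPKM in the scrambled and 70.1 and 69.4 RPKM in the vector controls of the Foxk2 set. The order of the groups was the same as for Lum, except that the vector controls of the Foxk1 set lay nearer to its scrambled controls.

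Dlk1, which marks preadipocytes and restrains their conversion, had 128, 112 and 97.4 RPKM in the scrambled and 66.8, 52.3 and 69.1 RPKM in the vector controls of the Foxk1 set, against 25.1 and 24.6 RPKM in the scrambled and 33.2 and 34.7 RPKM in the vector controls of the Foxk2 set. Again the sets did not overlap (log2 difference 1.51 ± 0.075, adjusted p = 2.37e-11). The matrix genes Postn, Fbn1, Dpt and Col1a2 were higher by 1.55, 1.51, 1.37 and 1.06 on the log2 scale, and Thy1, a surface marker of fibroblasts, by 1.19. Of Fbn1, 20.1% of the exons are overlapped on the opposite strand. The exceptions were S100a4 and Pi16. S100a4, a calcium-binding protein of motile fibroblasts, was lower by -2.79 ± 0.071 on the log2 scale. It had 7.01, 5.97, 6.95, 9.50, 8.70 and 7.66 RPKM in the Foxk1 set, against 43.1, 43.9, 69.5 and 69.6 RPKM in the Foxk2 set, and 51.7% of its exons overlap another gene on the same strand. Pi16 did not pass the test and stayed under 0.5 RPKM in all 10 libraries. Since these are bulk RNA libraries, more cells of a type and more RNA per cell cannot be told apart.

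The marker list was not shifted evenly. Its median log2 difference was 1.67 between the scrambled controls and 0.41 between the vector controls, and 15 of the 19 markers passed the test of the difference between these comparisons, all 15 with the larger value in scrambled controls (over all genes, 20% passed in that direction). Between scrambled controls 16 markers were higher and 1 lower, against 13 higher and 2 lower between vector controls. Over all genes 40.5% were higher and 29.4% lower between scrambled controls, and 35.0% and 31.1% between vector controls. In both kinds 13 markers were called in the same direction (48.6% of all genes were). The summed level of the list was 1228 to 2127 RPKM in the Foxk1 set and 777 to 1196 RPKM in the Foxk2 set. Collagen and matrix genes had 26 of 35 members higher (background 41.2%) and 6 lower. Their median was 1.02 between scrambled controls and 0.01 between vector controls. For Col1a1, the chain of type I collagen, this meant 315, 277 and 247 RPKM in the scrambled and 154, 132 and 163 RPKM in the vector controls of the Foxk1 set, against 87.5 and 86.9 RPKM in the scrambled and 152 and 154 RPKM in the vector controls of the Foxk2 set. Its vector controls overlapped between the sets, while its scrambled controls did not.

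Contractile genes of myofibroblasts followed the fibroblast list, with 9 of 11 higher (background 41.2%), 1 lower (Myh11, by -0.57) and 1 that did not pass. Their median was 0.73. Acta2, the smooth muscle actin, had 49.1, 51.9 and 49.6 RPKM in the scrambled and 43.1, 34.5 and 35.6 RPKM in the vector controls of the Foxk1 set, against 8.36 and 8.01 RPKM in the scrambled and 17.8 and 18.96 RPKM in the vector controls of the Foxk2 set. Myl9, a regulatory light chain of myosin, was higher by 2.43 ± 0.14. Cell cycle genes had 27 of 32 members higher and 3 lower, with a median of 0.62 (background 41.2% higher), but at low levels. That median was 0.13 after quantile normalization and 0.89 with voom on the recovered reads. Mki67, a marker of dividing cells, had 1.30, 1.39 and 1.37 RPKM in the scrambled and 0.821, 0.688 and 0.747 RPKM in the vector controls of the Foxk1 set, against 0.230 and 0.212 RPKM in the scrambled and 0.280 and 0.186 RPKM in the vector controls of the Foxk2 set.

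**Figure D2:**
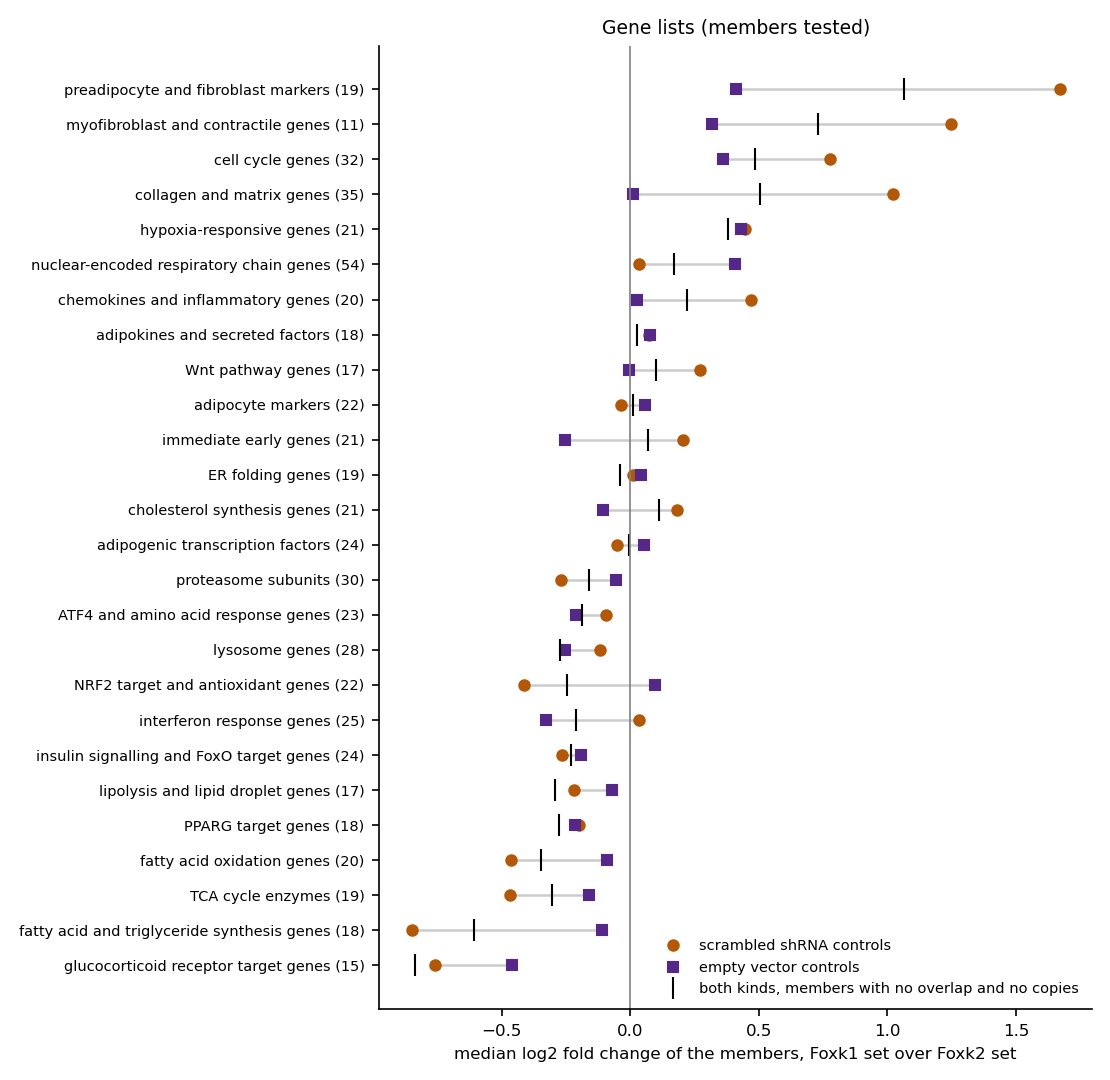
Median log2 fold change of the tested members of each gene list (number tested in brackets), Foxk1 set over Foxk2 set, between scrambled shRNA controls (circles) and between empty vector controls (squares). Ticks mark the median of the solitary members over both kinds. Fibroblast markers lie at 1.67 and 0.41, glucocorticoid receptor targets at -0.76 and -0.46, and adipocyte markers at -0.04 and 0.06.

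Targets of the glucocorticoid receptor were lower in the Foxk1 set. Of 15 tested, 14 were lower (background 33.7%) and 1 was higher (Mt2, by 0.22, which turned to -0.33 after quantile normalization and to -0.43 with the length and GC trend removed), with a median log2 difference of -0.63. All 12 solitary targets were lower, with a median of -0.84, against 40.2% of all solitary genes. The list was not shifted evenly over the kinds of control. Between scrambled controls all 15 were lower (29.4% of all genes were), with a median of -0.76. Between vector controls 9 were lower (31.1% of all genes were) and 3 higher, with a median of -0.46. Fkbp5, a co-chaperone of the receptor, had 8.01, 8.21 and 8.09 RPKM in the scrambled and 42.1, 49.9 and 42.9 RPKM in the vector controls of the Foxk1 set, against 135 and 135 RPKM in the scrambled and 110 and 112 RPKM in the vector controls of the Foxk2 set. The groups fell into 3 tiers, with the scrambled controls of the Foxk1 set lowest and both groups of the Foxk2 set highest (log2 difference -2.64 ± 0.043, adjusted p = 9.19e-18).

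Tsc22d3, the leucine zipper protein GILZ, had 16.7, 18.2 and 16.7 RPKM in the scrambled and 62.4, 67.2 and 61.2 RPKM in the vector controls of the Foxk1 set, against 87.1 and 84.9 RPKM in the scrambled and 88.8 and 86.2 RPKM in the vector controls of the Foxk2 set. Zbtb16, the transcriptional repressor PLZF, had 8.18, 8.39 and 8.48 RPKM in the scrambled and 23.5, 22.8 and 23.6 RPKM in the vector controls of the Foxk1 set, against 36.4 and 35.7 RPKM in the scrambled and 39.7 and 38.0 RPKM in the vector controls of the Foxk2 set. Both repeated the tiers of Fkbp5. Lcn2, the iron-siderophore carrier lipocalin 2, had 1.28, 1.603 and 1.604 RPKM in the scrambled and 3.94, 4.95 and 3.86 RPKM in the vector controls of the Foxk1 set, against 13.5 and 13.9 RPKM in the scrambled and 14.8 and 16.5 RPKM in the vector controls of the Foxk2 set. The gene of the receptor itself, Nr3c1, went the other way, at 22.5, 22.8 and 23.6 RPKM in the scrambled and 16.8, 15.9 and 15.8 RPKM in the vector controls of the Foxk1 set, against 14.5 and 14.4 RPKM in the scrambled and 14.4 and 13.6 RPKM in the vector controls of the Foxk2 set (log2 difference 0.43 ± 0.027).

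Mt1, a metal-binding protein that the receptor also induces, had 735, 804 and 796 RPKM in the scrambled and 1604, 1725 and 1632 RPKM in the vector controls of the Foxk1 set, against 1365 and 1268 RPKM in the scrambled and 1361 and 1293 RPKM in the vector controls of the Foxk2 set. The scrambled controls of the Foxk1 set were below, and its vector controls above, every library of the Foxk2 set.

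Enzymes of fatty acid and triglyceride synthesis were lower in the Foxk1 set in 15 of 18 members (background 33.7%), 1 was higher and 2 did not pass. Their median log2 difference was -0.50. All 10 solitary members were lower, against 40.2% of all solitary genes. Lpin1, which makes diacylglycerol, had 57.9, 60.1 and 59.5 RPKM in the scrambled and 93.2, 100 and 92.7 RPKM in the vector controls of the Foxk1 set, against 143 and 142 RPKM in the scrambled and 136 and 135 RPKM in the vector controls of the Foxk2 set. Gpam, the acyltransferase of the first step, was lower by -0.76 ± 0.031, and Agpat2, of the next step, by -0.70 ± 0.029. The list's median was -0.85 between scrambled controls and -0.11 between vector controls. Between vector controls 7 members were lower (31.1% of all genes were) and 5 higher (35.0% of all genes were).

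Genes of the TCA cycle and of fatty acid oxidation were mostly lower as well. Of 19 TCA cycle genes, 17 were lower (background 33.7%) and 1 was higher, with a median of -0.33. Of 20 fatty acid oxidation genes 15 were lower and 2 higher, with a median of -0.33. Between scrambled controls 18 TCA cycle genes were lower (median -0.47), and between vector controls 10 (median -0.16). For fatty acid oxidation 18 were lower and 2 higher between scrambled controls (median -0.46), against 9 lower and 6 higher between vector controls (median -0.09). Over all genes 29.4% were lower between scrambled controls. Between vector controls 31.1% of all genes were lower and 35.0% higher. Ogdh, a subunit of the oxoglutarate dehydrogenase, had 37.5, 36.7 and 38.3 RPKM in the scrambled and 47.6, 45.0 and 45.4 RPKM in the vector controls of the Foxk1 set, against 82.3 and 83.3 RPKM in the scrambled and 76.4 and 78.1 RPKM in the vector controls of the Foxk2 set. Pcx, pyruvate carboxylase, was lower by -0.79 ± 0.035, and Cpt2, which completes the carnitine shuttle, by -0.62 ± 0.026. Acadvl, the very-long-chain acyl-CoA dehydrogenase, was higher by 0.52 ± 0.022, with 42.9% of its exons overlapped on the opposite strand.

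Markers of the adipocyte state divided between the directions, much as all genes did (41.2% higher and 33.7% lower, median 0.06). Of 22, 8 were higher, 9 lower and 5 did not pass the test, with a median of 0.06 that turned to -0.33 after quantile normalization and to -0.28 with the length and GC trend removed, and their summed level was 16419 to 17977 RPKM in the Foxk1 set and 16001 to 17857 RPKM in the Foxk2 set. Cd36, a fatty acid transporter, had 526, 553 and 575 RPKM in the scrambled and 494, 482 and 454 RPKM in the vector controls of the Foxk1 set, against 912 and 942 RPKM in the scrambled and 899 and 877 RPKM in the vector controls of the Foxk2 set. Both kinds of control of the Foxk1 set were well below the Foxk2 set (log2 difference -0.82 ± 0.040). Pnpla2, the triglyceride lipase ATGL, had 627, 565 and 577 RPKM in the scrambled and 1125, 1087 and 1173 RPKM in the vector controls of the Foxk1 set, against 1174 and 1138 RPKM in the scrambled and 1275 and 1266 RPKM in the vector controls of the Foxk2 set. Here the scrambled controls of the Foxk1 set stood alone. Fabp4 and Lpl did not pass the test (adjusted p = 0.0539 and 0.249). Retn, which encodes resistin, was higher by 0.75 ± 0.039.

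**Figure D3:**
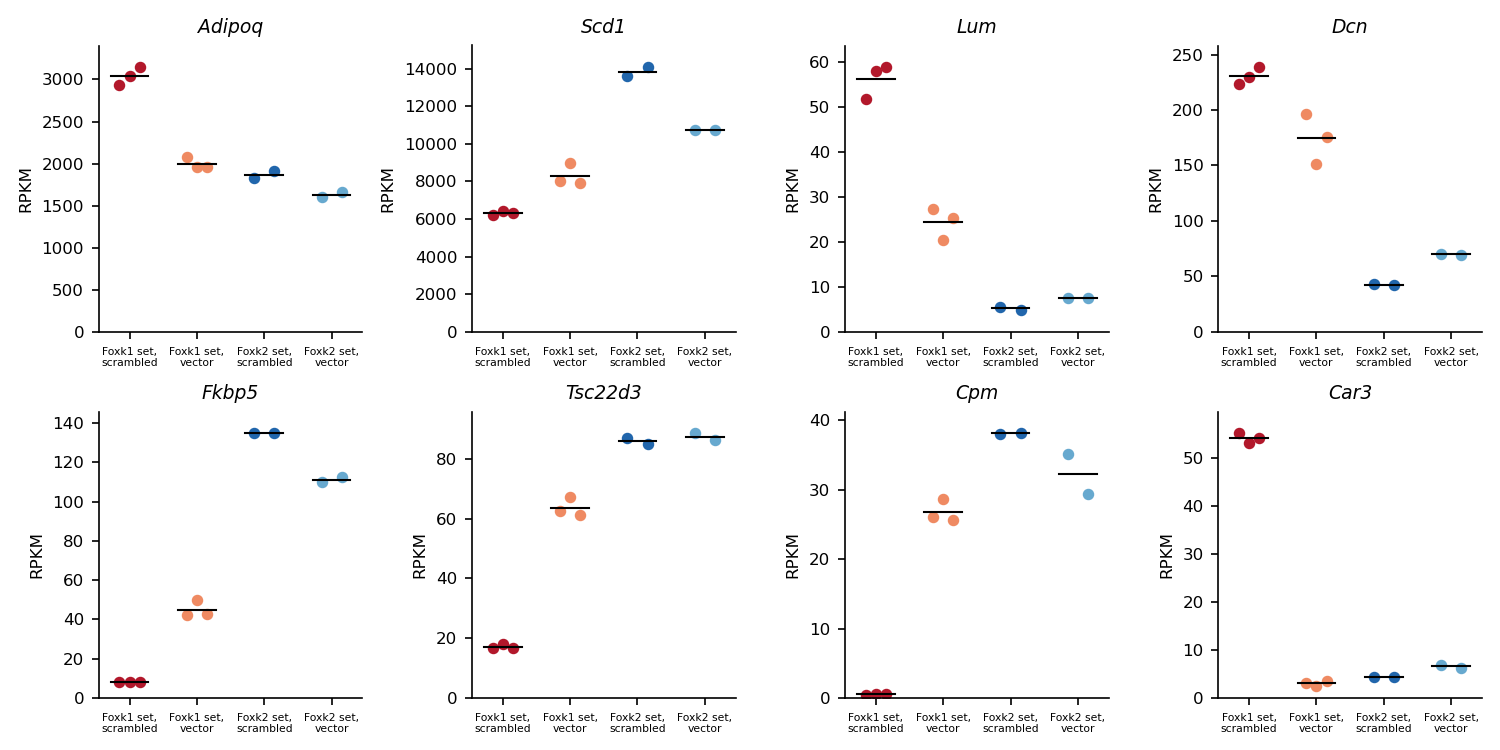
RPKM of 8 genes in each control library (points) with group means (lines), for the scrambled and vector controls of the Foxk1 set and then of the Foxk2 set. Lum and Dcn are higher and Scd1, Fkbp5, Tsc22d3 and Cpm lower in all 6 libraries of the Foxk1 set, and Car3 is high in the scrambled controls of the Foxk1 set alone.

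Hypoxia-responsive genes were higher in 16 of 21 members (background 41.2%) and lower in 2. Their median was 0.41 (0.45 between scrambled and 0.43 between vector controls). P4ha1, a prolyl hydroxylase of collagen, had 34.2, 36.1 and 33.4 RPKM in the scrambled and 26.9, 31.7 and 27.9 RPKM in the vector controls of the Foxk1 set, against 11.2 and 10.1 RPKM in the scrambled and 9.46 and 8.89 RPKM in the vector controls of the Foxk2 set. Bnip3, a mitophagy receptor, was higher by 1.86 ± 0.046, although 49.1% of its transcript recurs in other genes. Of 54 nuclear genes of the respiratory chain, 37 were higher (background 41.2%) and 12 lower. Their median of 0.21 turned to -0.12 after quantile normalization and to -0.29 with the length and GC trend removed. Between scrambled controls 22 were higher (40.5% of all genes were) and 19 lower, with a median of 0.03. Between vector controls 42 were higher (35.0% of all genes were) and 7 lower, with a median of 0.41. In the test of the difference between the kinds 45 were more negative in scrambled controls (15.2% of all genes were). Insulin signalling and FoxO target genes were lower in 18 of 24 members, lysosomal genes in 18 of 28 and proteasome subunits in 22 of 30, with medians of -0.24, -0.19 and -0.17 (background 33.7% lower). In proteasome subunits 24 were lower between scrambled controls (median -0.27), against 14 lower and 8 higher between vector controls (median -0.06). In lysosomal genes 14 were lower and 10 higher between scrambled controls (median -0.12), against 19 lower and 4 higher between vector controls (median -0.25). The insulin signalling list had 15 lower between scrambled and 14 lower between vector controls, with medians of -0.26 and -0.19. Interferon response genes had 10 of 25 members lower, 1 higher and 14 that did not pass, with a median of 0.03 between scrambled and -0.33 between vector controls. The background for lower genes is 33.7%.

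The rises of largest size among solitary genes were led by Wdr89 at 4.04 ± 0.054, with 8.78, 9.67 and 9.31 RPKM in the scrambled and 11.2, 10.2 and 10.5 RPKM in the vector controls of the Foxk1 set, against 0.165, 0.104, 0.139 and 0.117 RPKM in the Foxk2 set. Ptn, the growth factor pleiotrophin, had 565, 582 and 527 RPKM in the scrambled and 294, 209 and 276 RPKM in the vector controls of the Foxk1 set, against 38.0 and 40.2 RPKM in the scrambled and 68.9 and 70.4 RPKM in the vector controls of the Foxk2 set. Wfdc21, Tmsb4x, Sncg, Hcar1 and Hcar2 were higher by 2.28, 2.14, 2.07, 1.89 and 1.88 on the log2 scale. Hcar1 and Hcar2 are receptors of lactate and of ketone bodies that restrain fat breakdown, and Tmsb4x binds actin monomers.

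Among the falls, Cyp2e1, a cytochrome P450, had 2.30, 1.97 and 3.04 RPKM in the scrambled and 7.83, 5.48 and 6.99 RPKM in the vector controls of the Foxk1 set, against 32.7 and 30.7 RPKM in the scrambled and 34.3 and 31.3 RPKM in the vector controls of the Foxk2 set. Its scrambled controls of the Foxk1 set were lowest, as for Fkbp5, and the libraries of the Foxk2 set highest (log2 difference -2.84 ± 0.11). Apoc3 and Ptgds, an apolipoprotein and prostaglandin D synthase, were lower by -2.55 ± 0.13 and -2.39 ± 0.074.

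The set difference itself was not the same in the 2 kinds of control. In scrambled controls 6471 genes (40.5%) were higher and 4702 (29.4%) lower in the Foxk1 set, and in vector controls 5593 (35.0%) and 4966 (31.1%). The difference between these comparisons passed the test for 5636 genes (35.3%), with 3203 (20%) more positive and 2433 (15.2%) more negative in scrambled controls. That split moved with the scaling, to 2670 more positive and 3122 more negative with median-ratio scaling. In 2501 of the 5636, or 44.4%, the scrambled controls of the Foxk1 set were the group farthest from the median of the other 3. That share was 68.2% (272 of 399) among solitary genes whose comparisons differed by at least 2-fold, of which 232 (2.83% of solitary genes) were more positive and 167 (2.04%) more negative in scrambled controls. Over all genes 7772 (48.6%) were called in the same direction in both kinds and 806 (5.04%) in opposite directions.

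Car3, a carbonic anhydrase of fat cells, had 55.3, 53.3 and 54.2 RPKM in the scrambled and 3.09, 2.44 and 3.61 RPKM in the vector controls of the Foxk1 set, against 4.40 and 4.32 RPKM in the scrambled and 6.97 and 6.23 RPKM in the vector controls of the Foxk2 set. Only the scrambled controls of the Foxk1 set were high, so the log2 difference was 3.49 between scrambled and -1.01 between vector controls. Cpm, a membrane carboxypeptidase, had 0.468, 0.516 and 0.596 RPKM in the scrambled and 26.1, 28.7 and 25.6 RPKM in the vector controls of the Foxk1 set, against 38.0 and 38.2 RPKM in the scrambled and 35.2 and 29.4 RPKM in the vector controls of the Foxk2 set. It was the mirror image, low in the scrambled controls of the Foxk1 set alone. Egr1, an immediate early transcription factor, had 23.4, 25.02 and 18.4 RPKM in the scrambled and 3.81, 3.31 and 3.30 RPKM in the vector controls of the Foxk1 set, against 3.91 and 3.69 RPKM in the scrambled and 4.19 and 3.88 RPKM in the vector controls of the Foxk2 set.

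Adrb3, the β3-adrenergic receptor of fat cells, had 57.5, 51.1 and 48.6 RPKM in the scrambled and 9.57, 7.04 and 9.47 RPKM in the vector controls of the Foxk1 set, against 5.03 and 4.49 RPKM in the scrambled and 7.58 and 5.78 RPKM in the vector controls of the Foxk2 set. Col15a1, a basement membrane collagen, had 36.0, 35.1 and 32.8 RPKM in the scrambled and 3.66, 4.00 and 4.27 RPKM in the vector controls of the Foxk1 set, against 4.30 and 4.58 RPKM in the scrambled and 3.43 and 3.97 RPKM in the vector controls of the Foxk2 set. Both genes stood out in the scrambled controls of the Foxk1 set, with vector controls that overlapped between the sets. Of the exons of Adrb3, 24.9% are overlapped on the opposite strand. Cidea, a lipid droplet protein of brown and beige fat, was called in opposite directions, lower by -2.50 between scrambled and higher by 1.2 between vector controls.

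**Figure D4:**
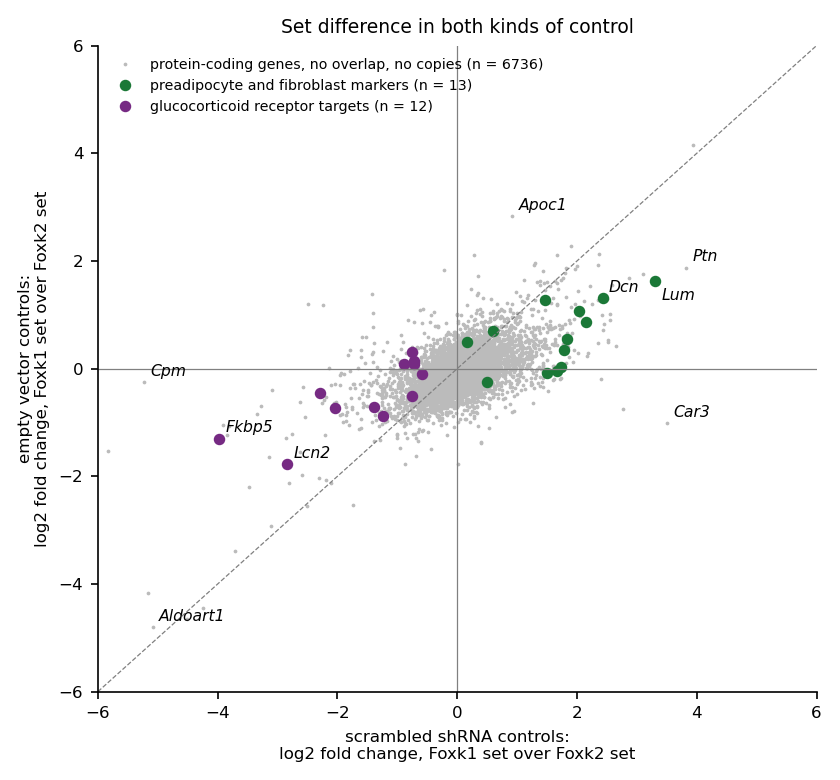
Log2 fold change, Foxk1 set over Foxk2 set, between scrambled shRNA controls (horizontal axis) and between empty vector controls (vertical axis) for 6736 solitary protein-coding genes (grey), with solitary fibroblast markers and glucocorticoid receptor targets in colour. The dashed line marks equal values. Fibroblast markers lie mostly to the right of 0 and receptor targets to the left, mostly with larger differences between scrambled than between vector controls.

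The 6 genes taken up next were chosen for the smallest set differences, so their values are a description. Sparcl1, a matricellular protein, had 128, 129, 136, 124, 117 and 123 RPKM in the Foxk1 set and 127, 125, 126 and 125 RPKM in the Foxk2 set, a log2 difference of 0.00 with a 95% interval of -0.05 to 0.05. The intervals of P4hb, a protein disulfide isomerase, and of Ctnnb1, β-catenin, ran from -0.04 to 0.05. Dag1, the matrix receptor dystroglycan, had an interval of -0.04 to 0.06, Hnrnpk, an RNA-binding protein, of -0.05 to 0.06, and Prnp, the prion protein, of -0.06 to 0.03. In 4 of the 6 the kinds of control differed in opposite directions, each past the test. The log2 difference was 0.25 between scrambled and -0.28 between vector controls for Prnp, 0.15 and -0.13 for Dag1, 0.11 and -0.09 for P4hb, and 0.09 and -0.08 for Ctnnb1. The small set differences also hang on the scaling. After quantile normalization all 6 were called lower, by -0.38 for Sparcl1, -0.49 for P4hb, -0.22 for Ctnnb1, -0.22 for Dag1, -0.25 for Hnrnpk and -0.54 for Prnp.

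Outside the solitary genes, the largest differences lay where a second gene shares the same DNA. Among protein-coding genes with under 20% of their transcript in copies, the 12 rises of largest size were all genes with exons overlapped on the opposite strand. Wdr38, a WD-repeat gene on chromosome 2 (chr2:38997476-39006168, plus strand, mm10), had 82.8, 82.5 and 87.2 RPKM in the scrambled and 101, 85.4 and 96.2 RPKM in the vector controls of the Foxk1 set, against 0.102, 0.105, 0.154 and 0.119 RPKM in the Foxk2 set. Rpl35, a ribosomal protein gene on the minus strand at chr2:39001580-39005624, averaged 384 RPKM in the Foxk1 set and 52.7 RPKM in the Foxk2 set. Ilk, the integrin-linked kinase (chr7:105736592-105742925, plus strand), had 44.1, 43.3, 44.2, 46.2, 43.1 and 46.9 RPKM in the Foxk1 set, against 0.128, 0.120, 0.151 and 0.148 RPKM in the Foxk2 set. Its exons are 89.7% overlapped by genes on the opposite strand, among them Taf10, a subunit of TFIID at chr7:105739393-105744361, which averaged 32.7 RPKM in the Foxk1 set and 9.23 RPKM in the Foxk2 set. The log2 differences were 7.17 for Wdr38 and 2.85 for Rpl35, and 6.15 for Ilk and 1.77 for Taf10.

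In other pairs too the partner, here the more abundant gene, differed by less than the gene on its opposite strand. Map3k15 averaged 52.4 RPKM in the Foxk1 set and 0.298 RPKM in the Foxk2 set, while Pdha1, the pyruvate dehydrogenase subunit on the opposite strand, averaged 166 RPKM in the Foxk1 set and 176 RPKM in the Foxk2 set. The log2 difference of Pdha1 was -0.40 between scrambled and 0.22 between vector controls. Pdzd9 averaged 25.2 RPKM in the Foxk1 set and 0.116 RPKM in the Foxk2 set, beside Uqcrc2 of respiratory complex III at 106 RPKM in the Foxk1 set and 104 RPKM in the Foxk2 set, with log2 differences for Uqcrc2 of -0.27 between scrambled and 0.29 between vector controls. Sla2 averaged 39.8 RPKM in the Foxk1 set and 0.0286 RPKM in the Foxk2 set, beside Rab5if at 65.3 RPKM in the Foxk1 set and 31.6 RPKM in the Foxk2 set, a log2 difference of 1.03 ± 0.033 for Rab5if (adjusted p = 7.53e-14). In each of these pairs the gene near 0 in the Foxk2 set had a lower level than its partner in the Foxk1 set.

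The pattern was graded over the genome. The median log2 difference of protein-coding genes was -0.03 for 7867 genes without opposite-strand overlap, 0.55 for 584 genes with 20 to 50% of their exons overlapped, 1.40 for 99 genes with 50 to 80%, and 3.32 for 51 genes above 80%. Of 907 antisense genes tested, 766 were higher (background 41.2%) and 22 lower, with a median of 1.81. Of these 907 genes, 2 were listed at 0 in all 6 libraries of the Foxk1 set, against 124 in all 4 of the Foxk2 set. Those 124 passed the filter on low values through other libraries and could only be higher in the Foxk1 set. The split of antisense genes is thus partly fixed by the filter and is a description. The sets also differ in depth and in their number of libraries, which bears on counts of genes at 0. Overlap on the same strand went with medians of -0.10 and -0.16. Whether the reads of the sets were assigned by strand in different ways was not tested. The strand of the libraries is not given in the sources used here.

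**Figure D5:**
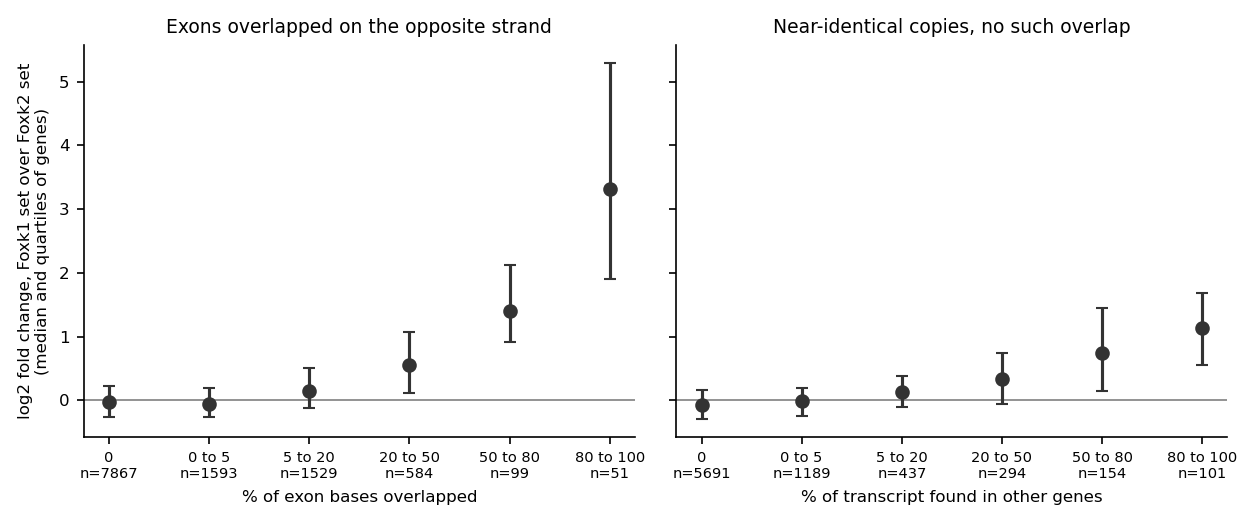
Median (points) and quartiles (bars) of the log2 fold change of protein-coding genes, Foxk1 set over Foxk2 set, by the share of exon bases overlapped on the opposite strand (left) and, for genes without such overlap, by the share of the transcript found in other genes (right). Medians run from -0.07 to 3.32 on the left and from -0.07 to 1.13 on the right.

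Genes with near-identical copies elsewhere also differed. The median was 1.13 for 101 protein-coding genes with more than 80% of the transcript in other genes, against -0.07 for 5691 genes with none. Sequences are given for 1 gene with an identical copy and 1 with a diverged copy, whose copies differed between the sets in opposite directions. The coding sequence of Rps27, a ribosomal protein gene on chromosome 3 (chr3:90212522-90213651, minus strand), is identical over 252 bases to that of its retrogene Rps27rt on chromosome 9 (chr9:114982366-114982739, minus strand). The first 90 coding bases from GENCODE M21 transcripts (mm10) are given with capitals at bases that differ between gene and copy.
Rps27: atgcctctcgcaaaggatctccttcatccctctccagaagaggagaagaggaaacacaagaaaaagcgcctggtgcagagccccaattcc
Rps27rt: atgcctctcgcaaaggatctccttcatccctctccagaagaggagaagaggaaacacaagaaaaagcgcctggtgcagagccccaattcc
Aldoa: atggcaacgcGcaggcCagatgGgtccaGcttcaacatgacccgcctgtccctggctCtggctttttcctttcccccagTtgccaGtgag
Aldoart1: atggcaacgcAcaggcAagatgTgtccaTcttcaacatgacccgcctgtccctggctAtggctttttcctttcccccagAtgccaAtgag

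Rps27 had 429, 489 and 492 RPKM in the scrambled and 551, 512 and 518 RPKM in the vector controls of the Foxk1 set, against 74.0, 74.99, 81.9 and 83.8 RPKM in the Foxk2 set. Rps27rt had 93.7, 114, 111, 126, 134 and 122 RPKM in the Foxk1 set and 0.158, 0, 0.224 and 0.168 RPKM in the Foxk2 set. Gene and copy were thus both several times higher in the Foxk1 set. Rps12 and its copy Rps12-ps3, identical over 396 coding bases, averaged 559 and 209.6 RPKM in the Foxk1 set. In the Foxk2 set Rps12 averaged 96.1 RPKM and Rps12-ps3 was listed at 0 in all 4 libraries.

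Aldoa, the glycolytic aldolase on chromosome 7 (chr7:126795234-126800751, minus strand), and its retrogene Aldoart1 on chromosome 4 (chr4:72850583-72852634, minus strand) are 93.9% identical, with 77 of 1254 aligned coding bases different and 7 of them in the stretch shown. Aldoart1 was listed at 0 in all 6 libraries of the Foxk1 set and had 16.2, 16.6, 12.8 and 14.1 RPKM in the Foxk2 set. Aldoa averaged 554 RPKM in the Foxk1 set and 485 RPKM in the Foxk2 set. Of these copies, the identical ones thus had reads in the Foxk1 set and the diverged one in the Foxk2 set.

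Processed pseudogenes, the retrocopies of spliced mRNAs, differed in direction with their copy share. Over all genes 41.2% were higher and 33.7% lower. Of 307 with more than 80% of their length found in other genes, 230 were higher and 35 lower in the Foxk1 set (median 1.21), and of 313 with a share above 0 and up to 20%, 10 were higher and 266 lower (median -1.30). The 632 with a share above 20% and up to 80% had 158 higher and 386 lower (median -0.75), and the 104 with none had 14 higher and 48 lower (median -0.30). In all, 269 of the 1356 processed pseudogenes tested were listed at 0 in all 6 libraries of the Foxk1 set and 57 in all 4 of the Foxk2 set. Among the 387 solitary ones these counts were 204 and 3. A gene at 0 in all controls of a set passed the filter on low values through other libraries. Such a gene could differ in a single direction only, so the splits of these classes are partly fixed by the filter and are a description. How each set's reads with several matching places were assigned was not tested.

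Ribosomal protein genes, most of which have many retrocopies, had 60 of 64 members higher (background 41.2%) and 3 lower, with a median of 1.44. The 3 exceptions were Rpl24, Rpl34 and Rps18. Rps18 had 8.70, 8.77, 8.65, 9.74, 10.4 and 9.82 RPKM in the Foxk1 set and 83.7, 81.7, 92.3 and 96.6 RPKM in the Foxk2 set, while its copy Rps18-ps3 averaged 54.5 RPKM in the Foxk1 set and 0.241 RPKM in the Foxk2 set. The members differed among themselves from -3.18 to 3.65. Rpl8, which has few copies and no overlap, was higher by 0.41 ± 0.027, a value that turned to -0.15 with the length and GC trend removed.

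The mitochondrially encoded mRNAs, several of which have full-length copies in the nuclear genome, were uneven within the Foxk2 set. mt-Co2, a subunit of cytochrome oxidase, had 1089, 675, 763, 482, 1188 and 611 RPKM in the Foxk1 set, against 737 and 113 RPKM in the scrambled and 11312 and 10333 RPKM in the vector controls of the Foxk2 set. The fitted set difference of -1.21 ± 0.53 (adjusted p = 0.0480) combined 1.51 between scrambled controls (adjusted p = 0.0833) and -3.94 between vector controls (adjusted p = 2.30e-04). It no longer passed the test when any 1 of 7 control libraries was left out, and was -0.54 (adjusted p = 0.343) without the first scrambled control of the Foxk2 set. Its nuclear copy Gm28661 averaged 399 RPKM in the Foxk1 set and 20.7 RPKM in the Foxk2 set. mt-Nd1, with no such copy by the same measure, had 9859, 10669.8, 11220.4, 8506, 7768 and 8095 RPKM in the Foxk1 set and 7028, 7126, 7702 and 7000 RPKM in the Foxk2 set. The 2 scrambled controls of the Foxk2 set thus lay far apart in mt-Co2 and close together in mt-Nd1. Of the 13 mitochondrially encoded mRNAs 4 were higher, 6 lower and 3 did not pass (background 41.2% higher and 33.7% lower). The kinds of control gave different directions, with 4 higher, 1 lower and a median of 0.58 between scrambled controls, and 2 higher, 8 lower and a median of -0.71 between vector controls.

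Length and base composition moved with the set difference as well. Among solitary protein-coding genes the median was 0.09 in the shortest of 4 equal classes of length and -0.11 in the longest, and 0.10 in the class of lowest GC content and -0.12 in that of the highest. With both trends removed from each library, the median of the fibroblast list was 0.89, that of the glucocorticoid receptor targets -0.86 and that of the fatty acid and triglyceride synthesis genes -0.52.

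Endothelial and hepatocyte markers were near the limit of the data. None of 10 endothelial markers passed the filter on low values, and their summed level was 0.18 to 0.44 RPKM in the Foxk1 set and 0.18 to 0.31 RPKM in the Foxk2 set. Hepatocyte markers summed to 0.13 to 0.56 RPKM in the Foxk1 set and 0.41 to 0.94 RPKM in the Foxk2 set, with 1 of 9 tested (Apoa1, lower). Epithelial markers summed to 1.19 to 2.87 RPKM in the Foxk1 set and 1.21 to 2.19 RPKM in the Foxk2 set, with 1 of 9 tested. Of 11 skeletal muscle markers 3 were tested, all 3 higher, with sums of 7.68 to 15.2 RPKM in the Foxk1 set and 6.10 to 9.66 RPKM in the Foxk2 set. Brown and beige fat genes summed to 113 to 204 RPKM in the Foxk1 set and 47.6 to 104 RPKM in the Foxk2 set. Most of each sum came from Cox8b alone, at 92.3 to 187 RPKM in the Foxk1 set and 38.8 to 85.5 RPKM in the Foxk2 set. Of the 13 genes 7 stayed under 0.5 RPKM in all 10 libraries. The 6 that were tested had 4 higher and 2 lower, and their median log2 difference of 0.19 turned to -0.30 after quantile normalization. Of 13 macrophage markers 4 were tested, with 2 higher and 1 lower, and they summed to 4.68 to 7.27 RPKM in the Foxk1 set and 3.83 to 6.85 RPKM in the Foxk2 set. Csf1r, the receptor of macrophage colony-stimulating factor, had 1.22 to 1.55 RPKM in the Foxk1 set and 0.0191 to 0.0420 RPKM in the Foxk2 set, with 15.1% of its exons overlapped on the opposite strand.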

How the data were processed

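The labels name total RNA as the material. The library kit, strand and read length are not given in the sources used here. Per the submitters' processing notes, the build was mm10 and HISAT2 2.1.0 was used; the tools named with it were Picard 1.141, Subread 1.5.1 with featureCounts, and edgeR, and the authors deposited RPKM values for 48440 genes in 20 libraries. RPKM multiplied by the merged exon length of GENCODE M21 gave whole reads within 0.1 read, from which depth was taken; for 5813 genes of another annotation version, the shortest length that gave whole reads was used. Genes that reached 0.5 RPKM in 2 or more of the libraries entered the fit on log2(RPKM + 0.5), a scale that understates changes of low genes, with limma 3.58.1 (R 4.3.3), 8 group means over all 20 libraries, eBayes with a trend of variance on level, Benjamini-Hochberg adjustment, two-sided. Positive values mean higher in the Foxk1 set. Tests on the manipulated libraries are not given; they entered the estimate of the spread alone. Copies were measured as the share of 50-base stretches of a transcript found in other genes, and overlap from the annotation. The fit was tested on simulated data. The members and lists were chosen with earlier results of these data known. Named genes follow a rule: Foxk1 and Foxk2, the 15 highest protein-coding genes, the largest set differences and differences between kinds, up to 4 members per list by p, all adipocyte and fibroblast markers, and genes nearest to 0. Rises and falls among solitary genes, overlapping partners, copies and their source genes, mt-Co2, Mt2, Myh11, Rpl24, Rpl34 and Rpl8 were added after values were seen. Some genes that the rule named are not reported here.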

Additional observations from a re-analysis of the deposited data

Results flagged for a closer look

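The set difference (log2 RPKM, Foxk1 set over Foxk2 set) was compared between scrambled and vector controls, and of 98 named genes with reads in both sets 64 passed limma's test of that difference (adjusted p under the 0.05 threshold, as did 35.3% of all genes). Several of these genes were named for this very difference or for their size, so nothing is read from that share. A positive value means a more positive set difference in scrambled controls. No cause was tested for any of them.

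Among fibroblast, matrix and contractile genes the values were 1.68 for Lum, 1.12 for Dcn, 1.28 for Dlk1, 0.96 for Postn, 1.09 for Fbn1, 0.18 for Dpt, 1.28 for Thy1, 1.71 for Col1a1, 1.44 for Col1a2, 1.53 for Acta2, 1.33 for Myl9 and 1.04 for Myh11. Genes of the glucocorticoid response and its receptor had -2.68 for Fkbp5, -1.83 for Tsc22d3, -1.32 for Zbtb16, -1.06 for Lcn2, -1.08 for Mt1, -1.77 for Mt2 and 0.45 for Nr3c1. In lipid handling and oxidation the values were -0.76 for Scd1, -0.75 for Lpin1, -0.86 for Gpam, -0.80 for Pnpla2, -0.36 for Lpl, -0.31 for Fabp4, -3.70 for Cidea, 2.97 for Adrb3, -0.39 for Ogdh and -0.23 for Acadvl. Secreted and adipocyte factors had 0.41 for Adipoq, -0.58 for Cfd, -0.72 for Retn, -2.61 for Apoc3 and 0.12 for Pparg. Genes singled out by size had 4.51 for Car3, 2.74 for Col15a1, 2.59 for Egr1, -4.98 for Cpm, -1.26 for Cyp2e1, -1.51 for Ptgds, 1.94 for Ptn, 1.18 for Wfdc21, 0.41 for Tmsb4x, 1.03 for Sncg, 1.21 for Hcar1 and 0.68 for Hcar2. Mitochondrial genes had 5.45 for mt-Co2, 0.43 for mt-Nd1, -0.28 for Cox8a, -0.56 for Uqcrc2, -0.61 for Pdha1 and -0.78 for Bnip3. The remaining values were 0.16 for Ctnnb1, 0.29 for Dag1, 0.31 for Foxk1, -0.66 for Fth1, 0.39 for Lgals1, 0.59 for Mki67, 0.20 for P4hb, 0.54 for Prnp, -0.40 for Rab5if, -0.41 for Sla2, -0.80 for Sod1 and -0.17 for Taf10. Values were positive in all 12 fibroblast, matrix and contractile genes given here. They were negative in 6 of the 7 of the receptor group, Nr3c1 being the exception. These genes were chosen with earlier results known and had all passed the test, so nothing is read from their signs. Over the whole lists, 15 of 19 fibroblast markers passed with a positive and 0 with a negative value. Of 15 receptor targets, 1 passed with a positive and 13 with a negative value. Over all genes the shares were 20% and 15.2%.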

How the results depend on the processing

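Of 254 recomputed counts of calls, 232 stayed within 1.5 times the main count and 22 did not. In the set difference, quantile normalization gave 4026 higher and 8916 lower, and 1266 lower by at least 2-fold. Those lower by at least 2-fold numbered 1290 with the length and GC trend removed, 438 at a mean of 1 RPKM or more, 440 without genes with near-identical copies and 463 at a mean of 20 reads or more. Without genes with copies or overlapping exons, an alternative chosen after seeing the data that tests fewer genes, 2326 were higher and 3274 lower, 195 and 377 of them by at least 2-fold. In scrambled controls there were 4070 higher and 8022 lower after quantile normalization, 7160 lower with the trend removed, and 2356 higher and 2854 lower without copies or overlap. In vector controls there were 3639 higher and 8254 lower after quantile normalization, and 1696 higher and 3038 lower without copies or overlap. The difference between the kinds then had 1923 more positive and 1372 more negative. The causes were not tested. Of the recomputed medians of gene lists 891 moved by less than the SE of the mean over their members and 89 by more, among them that of cell cycle genes, 0.13 after quantile normalization.

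Leaving out each control library in turn gave 6233 to 6575 genes higher and 5039 to 5338 lower in the set difference, and 2215 to 2253 and 755 to 800 by at least 2-fold. It gave 5719 to 6508 and 4060 to 4728 in scrambled controls, 4873 to 5602 and 4305 to 4989 in vector controls, and 2541 to 3164 and 1964 to 2397 for the difference between the kinds. On the recovered reads, voom gave 6875 higher and 5471 lower. With a replicate block the set difference had 6495 higher and 5287 lower. Deviations of libraries of the same number from their group means had correlations of -0.11 to 0.029. With only 2 or 3 libraries per group, this cannot exclude that the numbers pair them.

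On the log2 scale, the set difference changed sign for these named genes after quantile normalization: Aldoa -0.34, Cebpa -0.26, Ctnnb1 -0.22, Dag1 -0.22, Fabp4 -0.25, Fth1 0.25, Hnrnpk -0.25, Lgals1 -0.17, Lpl -0.27, Mt2 -0.33, P4hb -0.49, Pi16 -0.22, Sparcl1 -0.38 and Uqcrc2 -0.33. With median-ratio scaling it did so for Ctnnb1 -0.058, Dag1 -0.054, Hnrnpk -0.059 and P4hb -0.057, and with the length and GC trend removed for Adipoq -0.066, Aldoa -0.052, Cebpa -0.37, Cfd -0.57, Cox6a1 -0.14, Fabp4 -0.13, Hnrnpk -0.11, Lgals1 -0.52, Mt2 -0.43, P4hb -0.22, Rpl8 -0.15, Sparcl1 -0.26, Uqcrc2 -0.36 and mt-Nd1 -0.50. Of the other recomputed values of named genes, 50 no longer passed the test and 22 newly passed it. Depth limits genes under about 0.5 RPKM, where a library of the Foxk1 set holds fewer reads.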
